A study of Mus musculus with 12 samples.

Results

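The p53 pathway was followed in 4T1 mouse mammary carcinoma cells through 10 genes, Trp53 and 9 genes that control the p53 protein or are transcribed by it. The genes were taken by symbol (Trp53, Mdm2, Cdkn2a, Cdkn1a, Ccng1, Sesn1, Phlda3, Trp53inp1, Bbc3 and Bax), and all 10 were found among the 39017 genes of the count tables. The series asks, by its title, what loss of POGZ does to TGF-beta signals and to spread of the tumor. RNA was sequenced in 12 libraries, 3 in each of 4 groups. The first group was tumors of cells with the genotype label POGZ KO, and the second was tumors of cells with the label POGZ WT, titled VC. The same KO and VC labels on cells in culture made up the other groups. 4T1 is a transplantable mammary carcinoma line of BALB/c mice. Per the labels, RNA of cultures was taken at 75% confluency, in DMEM that held 10% FBS. For tumors, 50k cells were placed in the mammary fat of BALB/c mice aged 8 weeks, and each tumor was taken after 28 days and frozen. The edited site, the number of clones and whether culture replicates were separate cultures are not given in the sources used here, so p-values measure only the spread between these libraries.

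p53 is a transcription factor that is kept scarce by the ubiquitin ligase Mdm2 and is stabilised after DNA damage or oncogene activity. It then activates genes that stop the cell cycle, change metabolism or start apoptosis, and one of its targets is Mdm2, which closes a feedback loop. 4T1 is widely described as lacking functional p53 protein, and RNA counts show neither the reading frame nor the protein. Host cells in a tumor carry their own p53 genes.

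Total counts were 12128993 to 13043831 in KO-labelled tumors and 4712001 to 8338828 in VC-labelled tumors, and 14724518 to 21863223 in KO-labelled cultures and 17714560 to 18643217 in VC-labelled cultures. Pogz itself had 68.4, 67.8 and 68.6 CPM (each count relative to its library total) in KO-labelled cultures, against 50.9, 52.0 and 48.1 CPM in VC-labelled cultures. Its RNA was thus higher, not lower, under the KO label (log2 fold change 0.45 ± 0.04 SE, adjusted p = 3.66e-06, edgeR quasi-likelihood test with Benjamini-Hochberg adjustment over all genes). Genes of chromosome 3, where Pogz lies, had a median log2 fold change of 0.33 in the same comparison, so the rise was not particular to Pogz. In tumors Pogz had 131, 106 and 84.5 CPM under the KO label and 86.0, 103 and 109 CPM under the VC label (adjusted p = 0.944, edgeR). The groups are therefore called KO-labelled and VC-labelled, and every direction given rests on those labels. Leukocyte markers summed to 333 to 892 CPM in KO-labelled tumors and 213 to 374 CPM in VC-labelled tumors, and to less than 1 CPM in every culture, with Laptm5 at 0. Fibroblast markers summed to 3491 to 6541 CPM in KO-labelled tumors and 2326 to 3782 CPM in VC-labelled tumors, against 19 to 30.3 CPM in the cultures. The 8 epithelial markers were all detected. They summed to 1598 to 1815 CPM in KO-labelled tumors, all below the 1822 to 2243 CPM in VC-labelled tumors, and to 3089 to 3152 CPM in KO-labelled cultures and 2718 to 2994 CPM in VC-labelled cultures. The cells are labelled as triple-negative, yet Erbb2 RNA was at 42.2 to 81.3 CPM and Esr1 RNA at 30.7 to 52.1 CPM over the 12 libraries, while Pgr was at or near 0 in cultures. Tumor POGZ_KO_8459 stood apart from the other 5 tumors on the leading principal component, at 67.1 against -32.6 to 28.3, and had the highest leukocyte sum.

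Promoter sequence was matched to RefSeq windows on GRCm38.p6, which run from 250 bases before to 50 bases after a transcription start. Of the 10 genes, 9 had a window, with 14 windows in all. Trp53inp1 had no window and was not searched. The repeat unit of the p53 response element, a motif of 10 letters searched as its degenerate consensus, which reads the same on both strands, was present in 6 of the 14 windows. Over all 32851 mouse promoter windows, 8.36% held it. The 6 windows belonged to Trp53, Mdm2, Cdkn1a, Ccng1, Sesn1 and Bax. Among the genes with a window, those of Cdkn1a, Sesn1 and Bax are shown. The RNA of these genes gave the largest changes among them or the contrast between cultures and tumors described below. Capitals mark the matches to this unit. The window of the first Cdkn1a start (chr17:29090729-29091028, plus strand) held a pair, starting 73 and 51 bases before that start. The window of the other Cdkn1a start held none. The window of the second Sesn1 start (chr10:41887189-41887488, plus strand) held 1, starting 173 bases before the start. That of the other Sesn1 start held none. The Bax window (chr7:45466849-45467148, minus strand) held 1, starting 201 bases before the start.
Cdkn1a: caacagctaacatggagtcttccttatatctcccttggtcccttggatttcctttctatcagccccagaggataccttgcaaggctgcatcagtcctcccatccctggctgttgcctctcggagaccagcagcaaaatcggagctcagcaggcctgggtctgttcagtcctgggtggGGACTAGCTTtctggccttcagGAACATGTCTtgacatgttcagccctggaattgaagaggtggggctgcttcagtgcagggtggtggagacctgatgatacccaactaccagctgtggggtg
Sesn1, second start: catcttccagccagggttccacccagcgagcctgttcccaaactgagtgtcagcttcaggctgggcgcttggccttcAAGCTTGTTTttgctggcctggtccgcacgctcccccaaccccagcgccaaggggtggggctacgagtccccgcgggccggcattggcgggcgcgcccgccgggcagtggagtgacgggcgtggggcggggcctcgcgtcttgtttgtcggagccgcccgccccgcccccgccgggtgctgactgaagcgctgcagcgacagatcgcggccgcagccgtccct
Bax: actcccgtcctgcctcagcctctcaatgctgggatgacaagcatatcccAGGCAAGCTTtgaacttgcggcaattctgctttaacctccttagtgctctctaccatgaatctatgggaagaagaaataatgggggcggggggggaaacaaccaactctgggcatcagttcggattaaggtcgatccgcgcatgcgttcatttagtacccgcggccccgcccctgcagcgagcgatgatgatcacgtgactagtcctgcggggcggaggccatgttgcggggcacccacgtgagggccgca
A match of letters is a description of the window and not a bound site.

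Per base of exon, Ccng1 was the most abundant of the 10 genes in cultures and Cdkn2a was not detected there. On the RPKM scale (CPM divided by the exon length in kilobases), the mean level of Ccng1 was 28.1 ± 0.107 in KO-labelled cultures and 26.0 ± 1.63 in VC-labelled cultures (SD, n = 3 each). Mdm2 at 16.9 and Bax at 15.9 RPKM came next in KO-labelled cultures, with ranges that overlapped, as they did in VC-labelled cultures at 17.7 and 17.6 RPKM. Trp53 came after these at 6.74 RPKM under the KO label and 8.17 RPKM under the VC label, above Phlda3 at 5.63 and 6.68 RPKM. The place of Cdkn1a in the order differed, since its mean was 1.24 RPKM in KO-labelled cultures, with a range that overlapped that of Bbc3, and 3.73 RPKM in VC-labelled cultures, above Sesn1 and Trp53inp1. In tumors the mean of Trp53inp1 was 21.1 RPKM under the KO label, from 8.18 to 40.9 RPKM, so that its range overlapped those of Ccng1 and Mdm2, and 8.36 RPKM under the VC label.

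**Figure D1:**
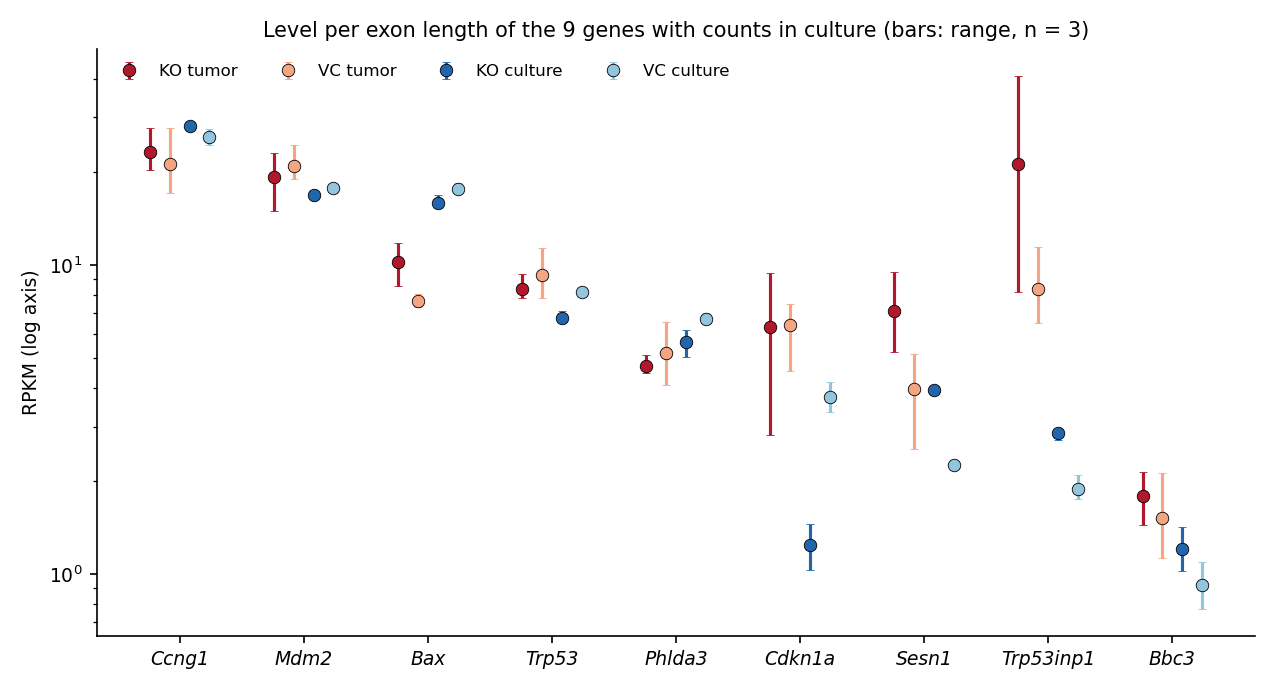
Level in RPKM, on a log axis, of the 9 genes with counts in culture, with a point for the mean of each group of 3 libraries and a bar for its range. Ccng1 and Mdm2 lay among the highest in every group, and the bar of Trp53inp1 in KO-labelled tumors ran from 8.18 to 40.9 RPKM.

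Cultures with the KO label had lower RNA of Trp53 and Cdkn1a and higher RNA of Sesn1 and Trp53inp1 than cultures with the VC label. Of the 10 genes, 9 passed the filter on low counts, and 4 of these 9 were called at an adjusted p under 0.05 (edgeR), 2 higher and 2 lower. Over all 15705 genes tested, 47.9% were called, 23.0% higher and 24.9% lower, so that the share of the pathway genes, 44.4%, was near that of all genes. The values of KO-labelled and VC-labelled cultures did not overlap for 8 of the 9 genes, 3 higher and 5 lower, beside 55.7% of all genes tested, 25.8% higher and 29.8% lower. With 3 libraries against 3, an exact permutation test of a single gene cannot give a p below 0.1. The median log2 fold change was -0.06 over the 9 genes and -0.01 over all genes.

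**Figure D2:**
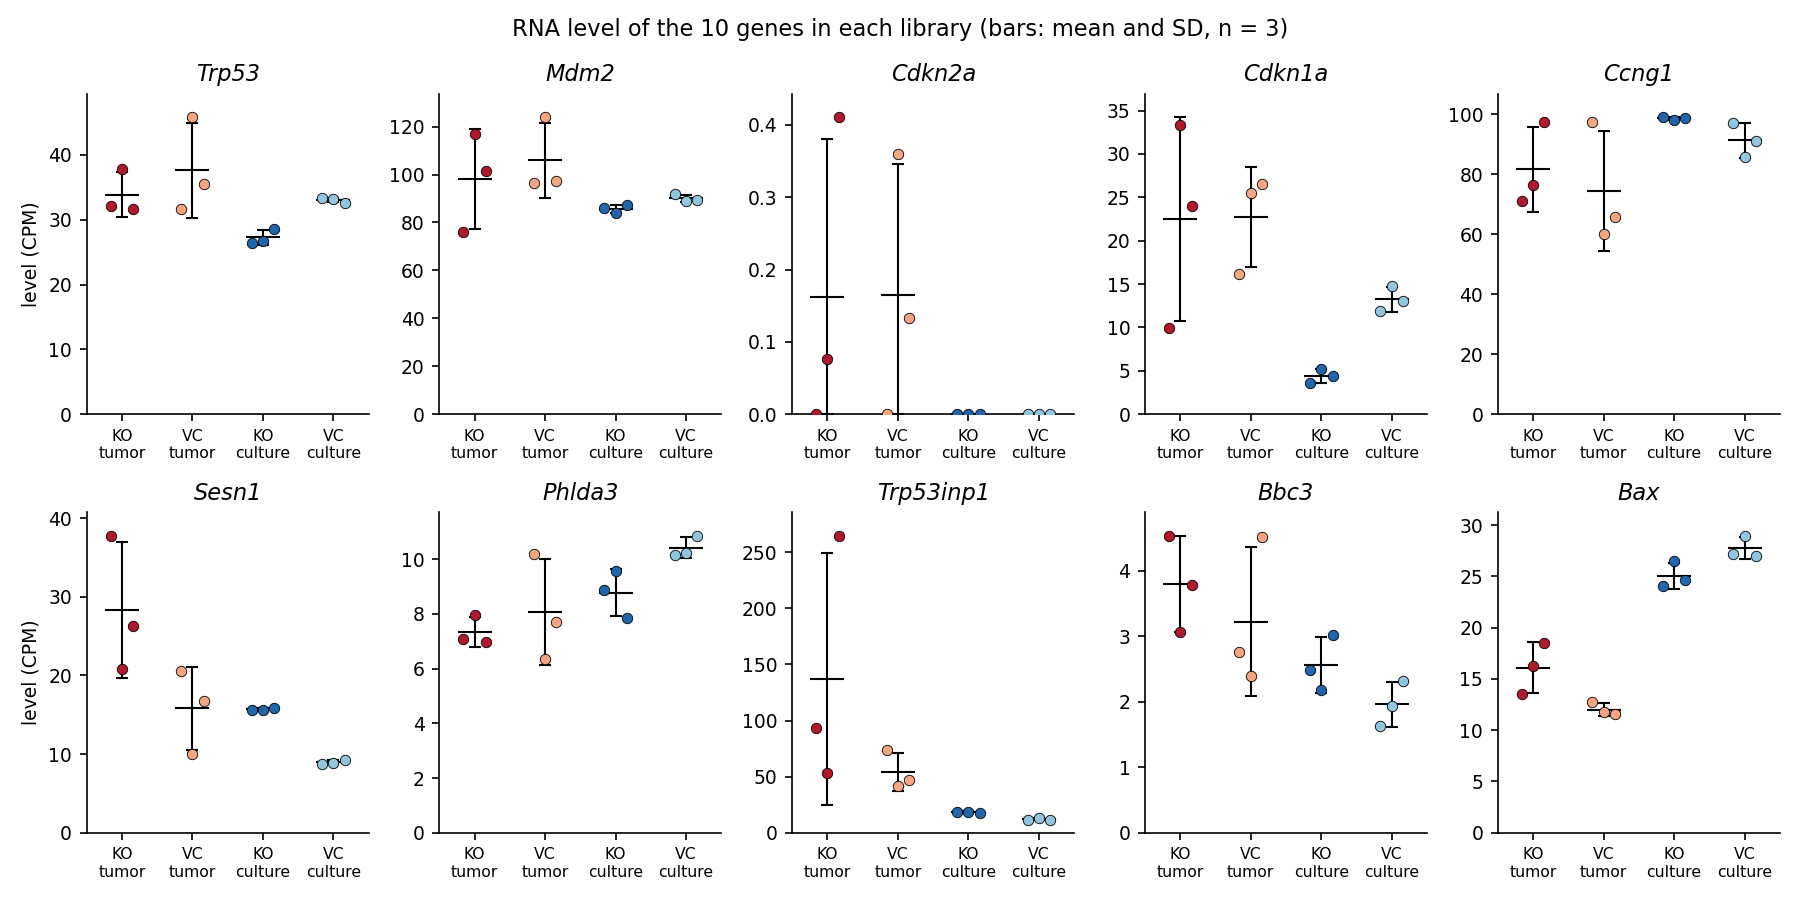
CPM of each gene in every library, a panel per gene, with groups from left to right KO tumor, VC tumor, KO culture and VC culture and bars for the mean and SD of 3 libraries. Cdkn1a was lower in the 3 KO-labelled cultures than in the 3 VC-labelled cultures, and the tumor values of both labels overlapped.

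Trp53 (chromosome 11, 69580359 to 69591873, plus strand, GRCm38) had 26.4, 26.8 and 28.6 CPM in KO-labelled cultures, against 33.3, 33.1 and 32.6 CPM in VC-labelled cultures. All KO-labelled cultures lay below all VC-labelled cultures. The log2 fold change was -0.27 ± 0.06 SE (adjusted p = 0.00188, edgeR), and the mean CPM fell by 17.4%. The call was lost when the cultures were fitted together with the more variable tumors (adjusted p = 0.243, edgeR). A processed pseudogene, Trp53-ps, held 0.108 to 0.322 CPM in the cultures, and reads split between near-identical copies would be uncertain.

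Mdm2 (chromosome 10, 117688875 to 117710758, minus strand), which marks p53 for degradation and is itself a p53 target, had 86.1, 83.9 and 87.2 CPM in KO-labelled cultures and 91.8, 89.1 and 89.4 CPM in VC-labelled cultures. The groups did not overlap, but the difference was small and did not pass the test (-0.06 ± 0.04, adjusted p = 0.196, edgeR). Genes of chromosome 10 had a median log2 fold change of 0.14 in the same comparison. With the median of each chromosome taken out, Mdm2 was called lower (-0.20, adjusted p = 0.00111, edgeR).

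Cdkn2a (chromosome 4, 89274471 to 89294653, minus strand) encodes both p19ARF, which holds Mdm2 away from p53, and p16INK4a, an inhibitor of cyclin-dependent kinases. It had no count in any of the 6 cultures. A count of 0 allows up to 3 counts, or 0.137 to 0.204 CPM, in a culture library. In tumors it had 0, 1 and 5 counts under the KO label and 0, 3 and 1 counts under the VC label. Its neighbor Cdkn2b, another inhibitor of cyclin-dependent kinases, also had 0 counts in every culture, but 10, 29 and 23 counts in KO-labelled tumors and 11, 15 and 13 counts in VC-labelled tumors. Against the limit of 3 counts per culture library, Cdkn2b was at least 9.59-fold higher in KO-labelled tumors than in KO-labelled cultures. The same bound was 11.9-fold for VC-labelled tumors over VC-labelled cultures. Dmrta1, beyond Cdkn2b, had 0 or 1 counts in cultures and 0 to 3 in tumors. Mtap, the neighbor on the other side and a methionine salvage enzyme, was abundant, at 484 ± 5.78 CPM in KO-labelled cultures and 626 ± 14.0 CPM in VC-labelled cultures (SD, n = 3 each). Mtap fell by 0.36 ± 0.04 on the log2 scale (adjusted p = 7.41e-06, edgeR), beside a median of -0.28 for genes of chromosome 4.

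Cdkn1a (chromosome 17, 29090976 to 29100727, plus strand) encodes p21, the inhibitor of cyclin-dependent kinases that carries much of the p53 arrest response. It had 3.65, 5.16 and 4.44 CPM in KO-labelled cultures, against 11.9, 14.8 and 13 CPM in VC-labelled cultures. The highest KO-labelled culture was far below the lowest VC-labelled culture. The log2 fold change was -1.59 ± 0.13 SE (adjusted p = 8.77e-07, edgeR), the largest in size of the 9 genes, and the call held in every alternative fit run, with values from -1.68 to -1.46. A transcript on the opposite strand, AC167363.2, shares 273 bases or 7.68% of its exons, and the sources used here do not say whether reads were counted by strand.

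Ccng1 (chromosome 11, 40748552 to 40755311, minus strand) encodes cyclin G1, which brings the phosphatase PP2A to Mdm2. Its level was 98.6 ± 0.376 CPM in KO-labelled cultures and 91.3 ± 5.72 CPM in VC-labelled cultures (SD, n = 3 each). The groups did not overlap, and the log2 difference of 0.12 ± 0.05 did not pass the test (adjusted p = 0.0556, edgeR). It passed under 3 other settings of the fit and without VC-labelled culture 1, the highest of the VC-labelled cultures, with adjusted p from 0.00552 to 0.0466 (edgeR). Without VC-labelled culture 2, the lowest, it was 0.075 (adjusted p = 0.236, edgeR).

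Sesn1 (chromosome 10, 41809935 to 41908424, plus strand) encodes sestrin 1, which restrains the mTOR complex under stress. It had 15.6, 15.6 and 15.9 CPM in KO-labelled cultures, against 8.81, 8.90 and 9.24 CPM in VC-labelled cultures. The groups were well apart, with little spread inside either. The log2 fold change was 0.81 ± 0.08 SE (adjusted p = 3.14e-06, edgeR), and 0.67 with the chromosome medians taken out, where it was still called. Among its relatives, Sesn2 differed by -0.18 ± 0.09 on the log2 scale (adjusted p = 0.122) and Sesn3 by 0.07 ± 0.05 (adjusted p = 0.260, edgeR), and neither was called.

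Phlda3 (chromosome 1, 135766119 to 135769136, plus strand), which competes with AKT at the membrane, had 8.77 ± 0.858 CPM in KO-labelled cultures and 10.4 ± 0.381 CPM in VC-labelled cultures (SD, n = 3 each). The groups did not overlap, with an adjusted p of 0.0512 (edgeR) for a log2 difference of -0.25 ± 0.10. The call lay at the threshold, since it passed with no filter on low counts (adjusted p = 0.0488), with structural RNA genes left out (0.0444) and without KO-labelled culture 2 (0.0479, all edgeR). It was -0.13 with the chromosome medians taken out (adjusted p = 0.323, chromosome 1 median -0.12) and -0.16 without KO-labelled culture 3 (adjusted p = 0.263, edgeR).

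Trp53inp1 (chromosome 4, 11156431 to 11174379, plus strand) encodes a stress-induced nuclear protein that also acts in autophagy. It had 18.9, 18.9 and 17.6 CPM in KO-labelled cultures, against 11.6, 13.6 and 11.3 CPM in VC-labelled cultures. Every KO-labelled culture exceeded every VC-labelled culture, and the log2 fold change was 0.61 ± 0.08 SE (adjusted p = 6.47e-05, edgeR). With the chromosome 4 median of -0.28 taken out it was 0.88. Its paralog Trp53inp2 rose further, by 1.20 ± 0.06 on the log2 scale (adjusted p = 2.19e-08, edgeR), at 34 ± 1.13 CPM in KO-labelled cultures and 14.9 ± 0.657 CPM in VC-labelled cultures (SD, n = 3 each).

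Of the death genes, neither was called. Bbc3 (chromosome 7, 16308393 to 16318205, plus strand), which encodes PUMA, a trigger of mitochondrial apoptosis, had 2.49, 2.17 and 3.02 CPM in KO-labelled cultures and 1.64, 1.93 and 2.32 CPM in VC-labelled cultures. It was the only 1 of the 9 genes whose groups overlapped (0.41 ± 0.20 on the log2 scale, adjusted p = 0.111, edgeR). Bax (chromosome 7, 45461697 to 45466898, minus strand), which forms pores in the outer mitochondrial membrane, had 24.1, 26.5 and 24.6 CPM in KO-labelled cultures and 27.2, 29.0 and 27.0 CPM in VC-labelled cultures. All KO-labelled cultures lay below all VC-labelled cultures, with a log2 difference of -0.14 ± 0.06 (adjusted p = 0.0770, edgeR). Bax shares 192 bases, or 12.2% of its exons, with Gm45808 on the same strand.

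In tumors no pathway gene was called between the labels, and no other gene tested was either. Of 17153 genes tested in tumors, 0.0% were called by edgeR. At an unadjusted p under 0.05 there were 956 (5.57%), and DESeq2 called 66, none of them among the 9 genes tested. The spread between tumors of 1 label was wide for several genes. In a tumor, fewer cells of a type and less RNA per cell cannot be told apart. For Sesn1 and Bax all KO-labelled tumors lay above all VC-labelled tumors, 2 of the 9 genes, beside 10.4% of all genes tested with no overlap, 4.96% higher. The median log2 fold change of the 9 genes was 0.15, and 0.02 over all genes.

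**Figure D3:**
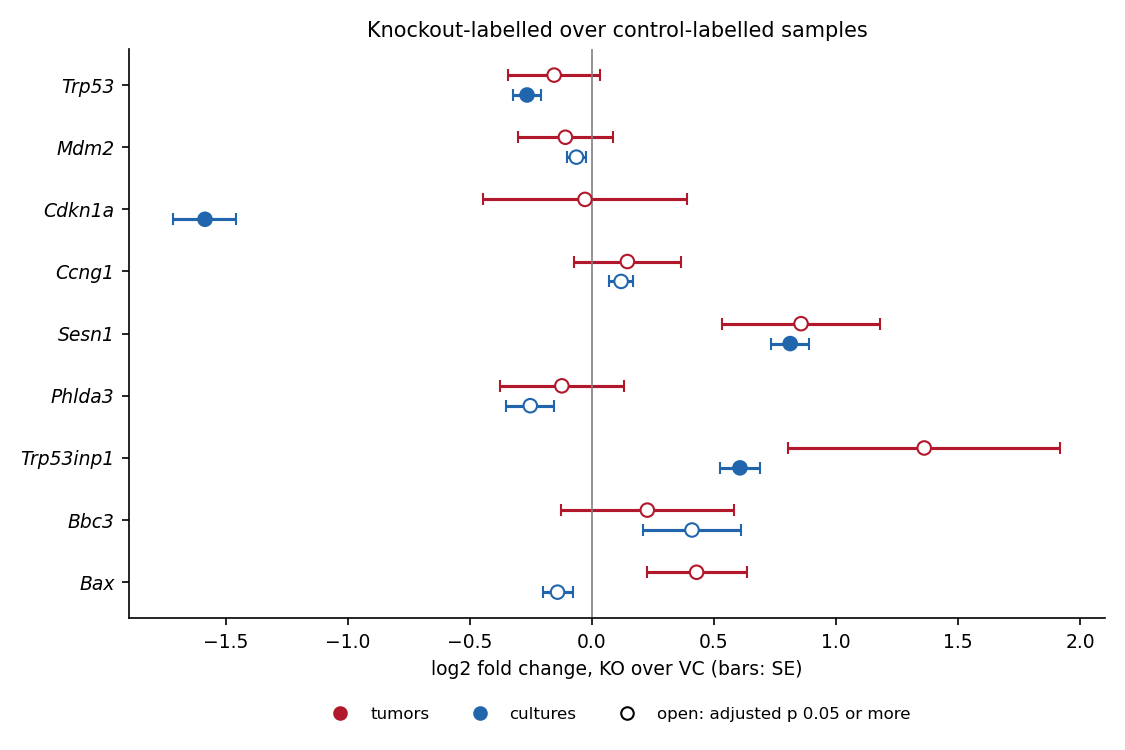
Log2 fold change of the KO label over the VC label for each gene, in tumors and in cultures, with bars of 1 SE and open points where the adjusted p was 0.05 or more. Cdkn1a was at -1.59 in cultures and -0.03 in tumors, and the tumor bars were wider for every gene.

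Sesn1 had 37.8, 20.9 and 26.3 CPM in KO-labelled tumors and 20.6, 10.1 and 16.7 CPM in VC-labelled tumors. The lowest KO-labelled tumor was just above the highest VC-labelled tumor. The log2 difference of 0.86 ± 0.32 was close to the 0.81 in cultures, with an unadjusted p of 0.0303 and an adjusted p of 0.861 (edgeR). The interaction of label and system was 0.05 ± 0.35 on the log2 scale (adjusted p = 0.993, edgeR).

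Bax had 13.5, 16.3 and 18.5 CPM in KO-labelled tumors, against 12.7, 11.8 and 11.6 CPM in VC-labelled tumors. Here the KO-labelled values were above, the reverse of the order in cultures. The log2 difference in tumors was 0.43 ± 0.20 (unadjusted p = 0.0711, adjusted p = 0.861, edgeR). Tumor POGZ_KO_8459, which had the highest Bax value, also had the highest leukocyte sum, 892 CPM. Without that tumor the KO-labelled values were still above the VC-labelled ones, with a log2 difference of 0.30. The sum of the 8 epithelial markers was lower in all KO-labelled tumors than in all VC-labelled tumors. The margin was small, with at most 1815 CPM under the KO label and at least 1822 CPM under the VC label. Singly, Epcam kept this order, while Krt8, Krt18 and Cdh1 overlapped between the labels. The part of host cells in the Sesn1 and Bax values was not tested.

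Cdkn1a had 9.98, 33.3 and 24 CPM in KO-labelled tumors and 16.1, 25.5 and 26.6 CPM in VC-labelled tumors. The KO-labelled range contained the VC-labelled one, and the log2 difference was -0.03 ± 0.42 (adjusted p = 0.996, edgeR). Leaving out single tumors moved it from -0.43 to 0.32, so that even its direction was not fixed in tumors.

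Trp53inp1 had 93.1, 53 and 265 CPM in KO-labelled tumors, against 73.9, 42 and 46.6 CPM in VC-labelled tumors. The groups overlapped, and 265 CPM belonged to tumor POGZ_KO_8459. The log2 difference was 1.36 ± 0.56 (unadjusted p = 0.0417, adjusted p = 0.861, edgeR), and 0.44 without that tumor.

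Trp53 had 32.1, 37.9 and 31.6 CPM in KO-labelled tumors and 31.6, 45.8 and 35.5 CPM in VC-labelled tumors (log2 difference -0.15 ± 0.19, adjusted p = 0.928, edgeR). Mdm2 had 75.9, 117 and 102 CPM in KO-labelled tumors and 96.6, 124 and 97.3 CPM in VC-labelled tumors (-0.11 ± 0.19, adjusted p = 0.944, edgeR). The values of both genes overlapped between the labels. Ccng1 averaged 81.6 ± 14.1 CPM in KO-labelled tumors and 74.4 ± 20.1 CPM in VC-labelled tumors (SD, n = 3 each). Phlda3 averaged 7.35 ± 0.546 CPM in KO-labelled tumors and 8.08 ± 1.94 CPM in VC-labelled tumors, and Bbc3 averaged 3.79 ± 0.734 CPM in KO-labelled tumors and 3.22 ± 1.13 CPM in VC-labelled tumors (SD, n = 3 each). For these 3 genes the log2 differences lay between -0.12 and 0.23, with overlapping values and adjusted p of 0.936 to 0.95 (edgeR).

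The difference between the label's effect in tumors and in cultures was tested directly, as an interaction over all 12 libraries. None of the 9 genes was called, beside 2.07% of 18419 genes tested (DESeq2 called 953 genes, none of them among the 9), and 2 of the 9 had an unadjusted p under 0.05, beside 15.4% of all genes. For Cdkn1a the interaction was 1.54 ± 0.49 on the log2 scale (unadjusted p = 0.00893, adjusted p = 0.150, edgeR). For Bax it was 0.57 ± 0.17 (unadjusted p = 0.00707, adjusted p = 0.136, edgeR). Both passed when tumor POGZ_KO_8454 was left out, at 1.89 for Cdkn1a (adjusted p = 0.00490) and 0.67 for Bax (adjusted p = 0.0185, edgeR), and neither passed when any other library was left out. That tumor had the lowest Cdkn1a and the lowest Bax among the KO-labelled tumors.

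Tumors differed from cultures in both labels by higher Cdkn1a, Sesn1 and Trp53inp1 and lower Bax. Under the KO label 5 of the 9 genes were called, 4 higher and 1 lower, beside 61.3% of 17311 genes tested, 35.3% higher and 26.0% lower. Under the VC label 4 of the 9 were called, 3 higher and 1 lower, beside 65.2% of 17123 genes tested, 35.7% higher and 29.5% lower. These comparisons use the same libraries as the comparisons of the labels. They set tumors with host cells against cultures without them, in tables deposited apart, so the system and any difference in how the tables were made cannot be told apart.

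**Figure D4:**
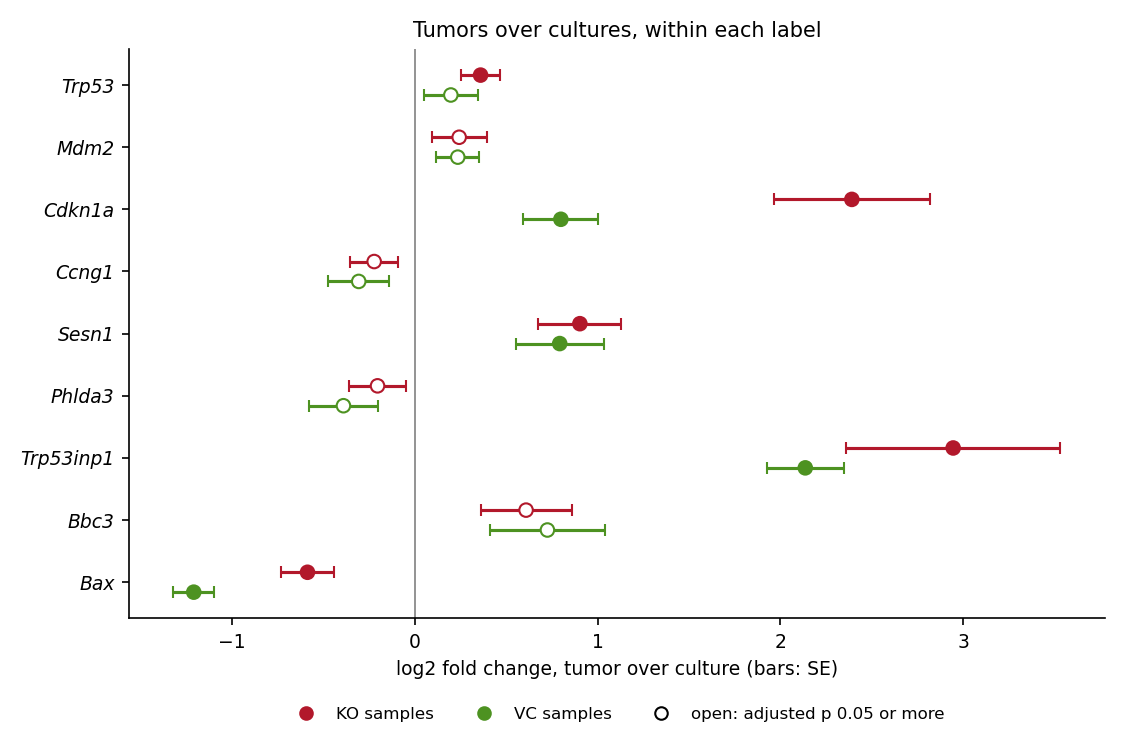
Log2 fold change of tumors over cultures for each gene, in KO-labelled and in VC-labelled samples, with bars of 1 SE and open points where the adjusted p was 0.05 or more. Trp53inp1 had the largest rise under both labels, at 2.95 and 2.14, and Bax the largest fall.

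Trp53inp1 averaged 137 ± 112 CPM in KO-labelled tumors and 18.5 ± 0.773 CPM in KO-labelled cultures (SD, n = 3 each). Its log2 fold change was 2.95 ± 0.59 (adjusted p = 0.00461, edgeR), and 1.94 without tumor POGZ_KO_8459. Under the VC label it averaged 54.2 ± 17.2 CPM in tumors and 12.2 ± 1.21 CPM in cultures (SD, n = 3 each; 2.14 ± 0.21, adjusted p = 6.43e-05, edgeR). All tumors were above all cultures in either label.

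Cdkn1a was higher by 2.39 ± 0.43 on the log2 scale in KO-labelled tumors than in KO-labelled cultures (adjusted p = 0.00291, edgeR). In VC-labelled tumors it was higher by 0.80 ± 0.20 than in VC-labelled cultures (adjusted p = 0.00908, edgeR). The 2 labels had near-equal means in tumors, 22.5 CPM under KO and 22.7 CPM under VC, and means of 4.42 and 13.2 CPM in cultures. The difference between these rises is the interaction given above, which did not pass the correction.

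Sesn1 was higher by 0.90 ± 0.23 in KO-labelled tumors (adjusted p = 0.0122) and by 0.79 ± 0.24 in VC-labelled tumors (adjusted p = 0.0196, edgeR), each over cultures of the same label. The VC-labelled call was lost in 5 of 6 fits that left out a library (adjusted p 0.0530 to 0.0820, edgeR), and the KO-labelled call without KO-labelled culture 1 or 2 (0.0510 and 0.0511). Bax was lower by 0.59 ± 0.15 in KO-labelled tumors (adjusted p = 0.0114) and by 1.21 ± 0.11 in VC-labelled tumors (adjusted p = 4.66e-05, edgeR). Trp53 was called under the KO label alone, at 0.36 ± 0.11 (adjusted p = 0.0231, edgeR), against 0.20 ± 0.15 under the VC label (adjusted p = 0.266); the difference between these, the interaction, was 0.11 ± 0.19 (adjusted p = 0.846). That call was lost in 5 of 6 fits that left out a library (adjusted p 0.0567 to 0.111, edgeR).

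Other genes of the pathway moved in both directions between KO-labelled and VC-labelled cultures. In tumors no gene of the 7 lists was called between the labels. Of 57 measured genes in the target lists, 18 were called higher and 23 lower in KO-labelled cultures, 71.9% beside 47.9% of all genes, with a median log2 fold change of 0.01. A gene can stand in more than 1 list. Medians of single chromosomes in this comparison ran from -0.45 on chromosome 6 to 0.33 on chromosome 3.

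**Figure D5:**
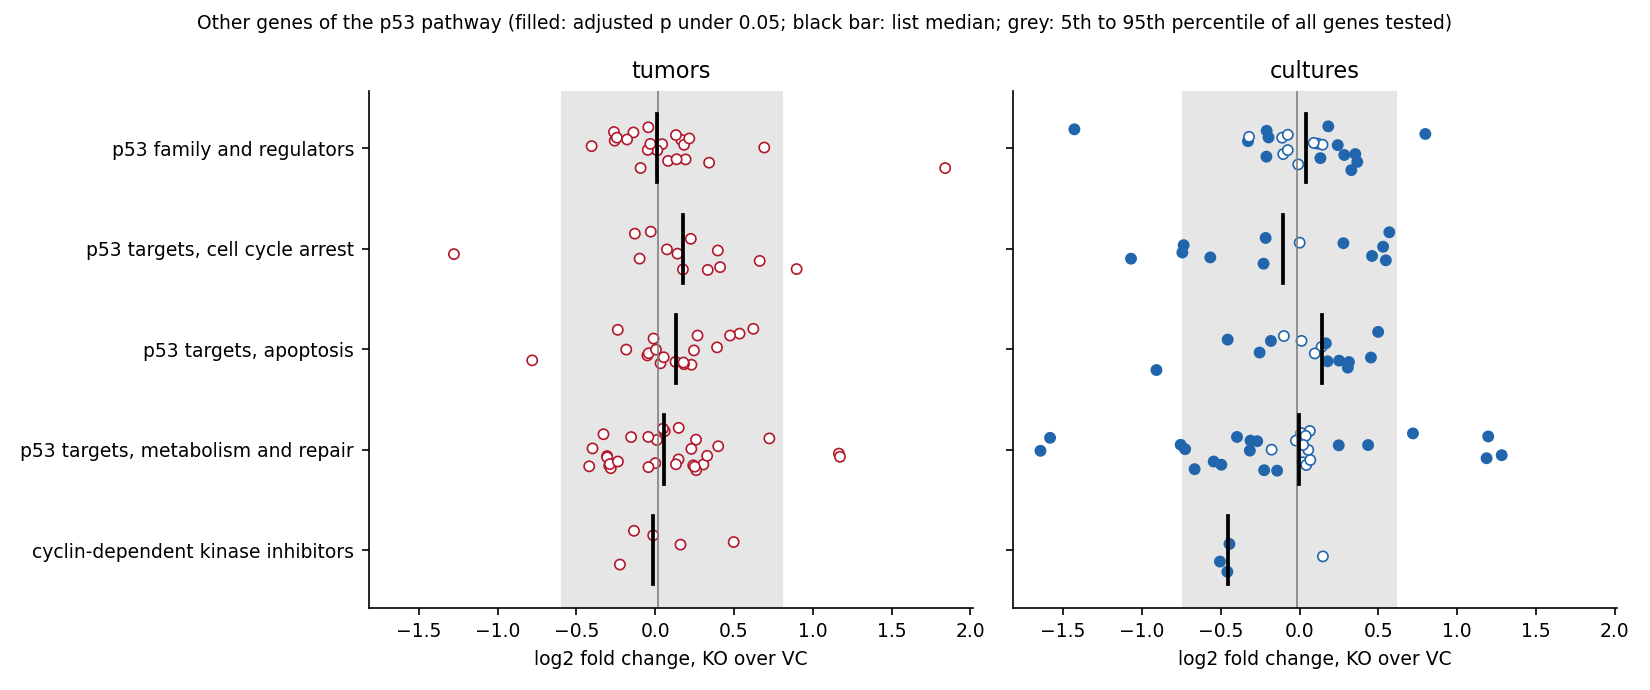
Log2 fold change of the KO label over the VC label for the measured genes of 5 lists, in tumors and in cultures. Filled points had an adjusted p under 0.05, the black bar is the list median, the thin line the median of all genes tested and the grey band their 5th to 95th percentile. The 3 lists of p53 targets held genes on both sides of 0 in cultures, with medians from -0.11 to 0.14.

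Among 22 measured family members and regulators, 8 were called higher and 5 lower in KO-labelled cultures, with a median of 0.04. Of all genes tested, 23.0% were called higher and 24.9% lower. Twist1, a transcription factor that can hold p53 in check, fell by 1.43 ± 0.10 on the log2 scale (adjusted p = 2.34e-07, edgeR). Trp53bp1, which acts at DNA breaks, rose by 0.37, the deacetylase Sirt1 by 0.35 and the ribosomal protein gene Rpl5 by 0.33, while Trp53bp2 fell by 0.33. Their chromosomes, 2, 10, 5 and 1 in that order, had medians of 0.25, 0.14, 0.10 and -0.12. In tumors Twist1 had 13.3 ± 3.38 CPM under the KO label and 11.4 ± 2.43 CPM under the VC label (SD, n = 3 each), a difference of 0.22 that did not pass the test.

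Among 12 measured arrest targets, 5 were called higher and 6 lower in KO-labelled cultures, with a median of -0.11. Ckap2, a mitotic spindle protein gene, fell by 0.74 ± 0.04 (adjusted p = 3.99e-08, edgeR), and Trp53i11 fell by 1.07 ± 0.10. Gadd45a, a growth arrest and DNA damage gene, rose by 0.57, Ccng2, the paralog of Ccng1, by 0.53 and Zmat3, an RNA-binding protein gene on chromosome 3, by 0.46.

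Of 15 measured apoptosis targets, 7 were called higher and 4 lower, with a median of 0.14. Bid, which links death receptors to mitochondria and lies on chromosome 6, fell by 0.91 ± 0.04 (adjusted p = 4.00e-09, edgeR). The genes of the survival proteins Mcl1 and Bcl2l1 rose by 0.45 and 0.31, beside medians of 0.33 and 0.25 for their chromosomes 3 and 2, Perp, a desmosomal membrane protein gene, by 0.50 and Rps27l by 0.25. So the list's name covers genes that promote and genes that oppose death, and both kinds were among those called.

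Of 30 measured metabolism and repair targets, 6 were called higher and 13 lower, with a median of -0.01. Thbs1, a thrombospondin gene, rose by 1.19 ± 0.04 (adjusted p = 1.30e-09, edgeR). Ddit4, an inhibitor of the mTOR complex, rose by 0.72, and the receptor gene Epha2 fell by 0.75. Medians of the chromosomes of Thbs1, Ddit4 and Epha2, which are 2, 10 and 4, were 0.25, 0.14 and -0.28.

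The list named for cyclin-dependent kinase inhibitors was made by gene symbol and leaves out Cdkn1a. Of its genes 4 were measured, and 3 of them were called, all lower in KO-labelled cultures, beside 24.9% of all genes called lower. The other, Cdkn3, a phosphatase gene despite its symbol, differed by 0.15 (adjusted p = 0.132, edgeR). Cdkn1b, which encodes p27, had 82.5 ± 3.35 CPM in KO-labelled cultures and 114 ± 2.3 CPM in VC-labelled cultures (SD, n = 3 each). It fell by 0.46 ± 0.04 (adjusted p = 1.95e-06, edgeR), beside a chromosome 6 median of -0.45. Cdkn2c fell by 0.50 on chromosome 4, whose median was -0.28, and Cdkn2d by 0.44 on chromosome 9, whose median was 0.03.

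Among 16 measured relatives of the pathway genes, 7 were called higher and 3 lower in KO-labelled cultures, with a median of 0.08. The shares over all genes were 23.0% higher and 24.9% lower. Bmf, a trigger of apoptosis of the same class as Bbc3, had 28.8 ± 0.573 CPM in KO-labelled cultures and 11.7 ± 0.249 CPM in VC-labelled cultures (SD, n = 3 each). It rose by 1.31 ± 0.06 (adjusted p = 1.12e-08, edgeR), and the survival gene Bcl2 rose by 0.30. Hrk, of the same class, had 17, 21 and 25 counts in KO-labelled cultures and 1 count in each VC-labelled culture. Scaled to total counts, that is a ratio of 21.4 with an exact 95% interval of 7.0 to 107 for counting error alone. Hrk passed the filter on low counts only through the KO-labelled cultures, where it was high. The 7 genes called higher include it with that limit.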

How the data were processed

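The deposited tables hold the authors' raw counts per gene, 1 for cultures and 1 for tumors. The tools were featureCounts 1.4.4, Trimmomatic 0.32 and STAR 2.3.0e, with the build mm10, per the submitters' processing notes, and settings, annotation release and strand are not given in the sources used here. Genes were placed on GRCm38 by Ensembl ID through GENCODE M21 (37693 of 39017 IDs).

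Counts were tested in R 4.3.3 with edgeR 4.0.16: filterByExpr, TMM scaling and the quasi-likelihood test, with Benjamini-Hochberg adjustment over all genes tested and calls at an adjusted p under 0.05. Each of the 4 pairs of groups was fitted alone, and the interaction over all 12 libraries. Fold changes use TMM-scaled libraries, while CPM uses total counts and RPKM also exon length, so their ratios differ slightly. The test was checked on counts simulated with the same fixed spread for every comparison. The check therefore does not cover the wider spread between tumors. The pathway genes, the 7 lists (107 of 108 symbols found) and the rules were chosen with earlier results of these data known. Named genes were the 10 pathway genes, and up to 5 called genes of smallest p per list and comparison of the labels, or up to 2 of the highest mean where none was called. Of the genes this rule names, 1 is not reported here. For Trp53 and Cdkn1a the 3 genes of highest Pearson r were also named. Alternatives were RLE scaling, no filter, DESeq2 1.42.0, structural RNA genes left out, chromosome medians taken out, thinned tumors, 1 fit of all libraries, a replicate block and leaving out each library.

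Totals of 4712001 to 21863223 counts set the precision. Intervals and limits for 0 counts cover counting error only. The tables were read with Python 3.11.15 and pandas 2.3.3.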

Additional observations from a re-analysis of the deposited data

Results flagged for a closer look

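Bax was marked because the labels stood in opposite order in the 2 systems. Its 3 KO-labelled tumors were all above the 3 VC-labelled tumors, while its 3 KO-labelled cultures were all below the 3 VC-labelled cultures. The interaction was 0.57 on the log2 scale, with an unadjusted p of 0.00707 and an adjusted p of 0.136 (edgeR quasi-likelihood test with Benjamini-Hochberg adjustment), so the difference did not pass the correction. Over the alternatives and left-out libraries it ran from 0.45 to 0.67. Leukocyte markers summed to 333 to 892 CPM in KO-labelled tumors and 213 to 374 CPM in VC-labelled tumors, and their part in the tumor values was not tested.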

How the results depend on the processing

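Counts over all genes moved by more than 1.5 times in these cases. In cultures 7523 genes were called, and 1489 with all 12 libraries in 1 fit, where Cdkn1a stayed called (adjusted p = 0.0204) and Trp53 (0.243), Sesn1 (0.0700) and Trp53inp1 (0.518, edgeR) did not. In tumors the count of 0 became 66 with DESeq2 and 63 in 1 fit. The interaction count of 381 became 953 with DESeq2 and ran from 147 to 1588 without single libraries. The Cdkn1a difference between tumors turned to 0.043 with libraries thinned to the smallest total (adjusted p = 0.992).

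Without single libraries, log2 differences between the labels in tumors crossed 0 for Trp53 (-0.29 to 0.011), Mdm2 (-0.25 to 0.040), Cdkn1a (-0.43 to 0.32), Ccng1 (-0.017 to 0.35) and Phlda3 (-0.27 to 0.039). Interactions crossed 0 for Mdm2 (-0.18 to 0.10), Ccng1 (-0.12 to 0.26), Sesn1 (-0.22 to 0.27), Phlda3 (-0.026 to 0.31), Trp53inp1 (-0.16 to 1.14) and Bbc3 (-0.36 to 0.20). None of these was called before. For tumors over cultures, calls appeared without single libraries for Ccng1, Phlda3 and Bbc3 under the VC label and for Mdm2 and Ccng1 under the KO label. Of 549 values of the pathway genes under alternatives, 496 kept direction and side of the threshold, 16 lost a call, 17 gained one and 20 changed sign. The causes were not tested.

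No pairing by replicate number was seen in the cultures. With group means taken out, same-numbered libraries had correlations of -0.09, -0.01 and 0.04, and 1 of 3 numbers matched best with itself. These values cannot tell whether libraries were made in pairs, and the sources used here do not say. With the replicate block 7238 genes were called. Tumor labels share no numbers. With tumors thinned to the smallest total, 4712001, the difference between the labels also moved for Phlda3 (-0.26) and Bbc3 (0.42), neither called.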

Other observations

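Across the 12 libraries, the gene most like Cdkn1a in log2(CPM + 1) was Nos2, the inducible nitric oxide synthase gene, with Pearson r = 0.979 among 12841 genes compared, followed by Serpina3i (0.972) and Cpt1c (0.970). For Trp53 the most alike were Abcg4 (0.974), Nfe2l3 (0.965) and Hmga2 (0.963). Some of these genes had low counts, which limits their r values. Abcg4 had 4 to 26 counts per library and Cpt1c 8 to 58, and Serpina3i had 5, 6 and 9 counts in KO-labelled cultures. The likenesses are descriptions, since the 4 groups differ in system and label and the libraries share them.

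Of 101 measured genes in the 7 lists, 5 were called in the interaction (4.95%, beside 2.07% of all genes tested), and they are named here after their values were seen. The label's effect was higher in tumors than in cultures for Steap3, an iron reductase gene (2.76 ± 0.59 on the log2 scale, adjusted p = 0.0365), Twist1 (1.65, adjusted p = 0.0159), Abcb1a, a drug efflux pump gene (1.49 ± 0.31, adjusted p = 0.0308), and Trp53i11 (1.21, adjusted p = 0.0202, all edgeR). Hrk was called with the opposite sign (adjusted p = 0.0216, edgeR). It had 1, 1 and 0 counts in KO-labelled tumors, 0, 4 and 1 counts in VC-labelled tumors and 1 count in each VC-labelled culture. It passed the filter on low counts only through the KO-labelled cultures, at 17, 21 and 25 counts. The tumor part of its interaction was therefore near the floor, and the count of 5 calls includes it with that limit. Steap3 had 13.2 ± 7.21 CPM in KO-labelled tumors and 5.81 ± 2.19 CPM in VC-labelled tumors, and 3.49 ± 0.852 CPM in KO-labelled cultures and 10.7 ± 1.60 CPM in VC-labelled cultures (SD, n = 3 each).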
